A study of Mus musculus with 6 samples.

Results

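The 10 immediate early transcription factor genes Fos, Fosb, Jun, Junb, Egr1, Egr2, Egr3, Atf3, Nr4a1 and Ier2 were followed in mouse lung, among 20245 genes measured on the same arrays. They were chosen by name, and each was read from the probe of that gene with the highest mean processed signal over the 6 arrays. Lungs were taken whole from male mice 8 weeks old that had received no treatment, 3 from wild-type (WT) mice and 3 from Nogo-A/B knockout mice, which lack the long Nogo-A and Nogo-B products of the reticulon gene Rtn4. The labels give no strain background, no cell type for the deletion and no treatment or challenge, and they call the lungs of a group individual biological replicates. The wild-type lungs are numbered 11, 12 and 13 and the knockout lungs 1, 11 and 12.

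Immediate early genes are held ready for induction in resting cells. Growth factors, stress, mechanical strain and calcium signals activate kinases that phosphorylate factors already bound at their promoters, such as CREB at cAMP response elements and serum response factor at CArG boxes, so their RNA appears without new protein synthesis and decays quickly. In lung they are known as genes whose RNA can climb while tissue is being dissected, and in leukocytes they follow activation.

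None of the 10 genes differed between the genotypes after adjustment over all genes. The mean was lower in the knockout for 8 of 10 (47.8% of all genes, and 9 of 10 members under the other scalings), with a median difference of -0.37 on the log2 scale against 0.01 over all genes, and Fos and Egr1 had the largest differences. Wild-type 11 had the highest signal of the 6 lungs for 7 of 10 genes, and knockout 12 lay below the mean of the 6 lungs for 10 of 10. The arrays were scanned on 2 days: 10 of 10 members were lower in the knockout within day 2 (39.8% of all genes) and 4 of 10 within day 1 (54.6% of all genes), and 0 members passed the test of the change between days by limma (smallest adjusted p = 0.383). A level is the log2 ratio of a signal to the 75th percentile of its array, so that a value of 1 is a signal 2-fold above that percentile. Differences are knockout minus wild type on the same log2 scale. In a whole lung, fewer cells of a type and less RNA per cell cannot be told apart.

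Scan day 1 took the arrays of knockout 1, knockout 11 and wild-type 13, and day 2 those of knockout 12, wild-type 11 and wild-type 12. Array profiles correlated at 0.972 to 0.994 within a day and at 0.950 to 0.965 across days. Both days held both genotypes, so each difference is given over all 6 lungs and within each day. Of the probes on an array, 68.9% to 78.0% were well above background, and the number of arrays limits the precision. The targeted gene Rtn4 lay between 1.62 and 2.36 in the wild-type lungs and between -1.79 and 1.1 in the knockout lungs, without overlap, at a difference of -2.36 (SE 0.72, unadjusted p = 0.016, adjusted p = 0.9998 by limma). Knockout 1, at 1.1, lay nearer to the lowest wild-type lung (1.62) than to knockout 11 (-0.71) and knockout 12 (-1.79). The Rtn4 probe does not single out the transcripts of Nogo-A and Nogo-B. Markers of lung epithelium were well above background on every array.

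What the members share at their promoters was read from RefSeq windows on GRCm38.p6, which reach from 250 bases before to 50 after each annotated start. Windows were given for 7 of the 10 genes, 5 for Egr2 and 1 for each of the others. A gene is counted when any of its windows holds a match, while the shares beside it are of single windows. The CRE core TGACG, searched on both strands, stood in 6 of 7 genes (Fos, Fosb, Junb, Atf3, Egr2 and Nr4a1) and in 20.8% of all 32851 windows of that length. In Egr2 it stood in windows 3, 4 and 5, which overlap. The stretches just upstream of the start are shown because they carry these matches, in capitals, with the CRE core (CGTCA where it lies on the other strand), the CArG box of Egr2 and the TATA box TATAAA of Fos. They are written 5′ to 3′ on the strand of the gene and end at the last base before the start.
Fos: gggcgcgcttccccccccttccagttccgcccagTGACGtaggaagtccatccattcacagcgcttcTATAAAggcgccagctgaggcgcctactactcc
Fosb: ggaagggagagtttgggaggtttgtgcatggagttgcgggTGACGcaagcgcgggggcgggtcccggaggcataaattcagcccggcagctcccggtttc
Junb: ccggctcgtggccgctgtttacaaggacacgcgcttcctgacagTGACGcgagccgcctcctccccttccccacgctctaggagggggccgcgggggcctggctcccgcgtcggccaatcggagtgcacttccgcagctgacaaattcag
Atf3: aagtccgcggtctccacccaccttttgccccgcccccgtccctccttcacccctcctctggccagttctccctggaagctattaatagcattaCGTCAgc
Egr2: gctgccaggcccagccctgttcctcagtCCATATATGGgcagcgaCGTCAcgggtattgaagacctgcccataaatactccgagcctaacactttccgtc
Nr4a1: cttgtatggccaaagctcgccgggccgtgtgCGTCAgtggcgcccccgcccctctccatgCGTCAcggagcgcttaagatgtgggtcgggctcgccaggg
Jun: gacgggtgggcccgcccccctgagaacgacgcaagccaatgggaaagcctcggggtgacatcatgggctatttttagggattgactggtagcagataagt
These are chr12:85473790-85473889 on the plus strand for Fos, chr7:19310046-19310145 on the minus strand for Fosb, chr8:84978749-84978898 (minus) for Junb, chr1:191183334-191183433 (minus) for Atf3, chr10:67537769-67537868 (plus, the third of 5 Egr2 windows) for Egr2, chr15:101266746-101266845 (plus) for Nr4a1 and chr4:95052223-95052322 (minus) for Jun.

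**Figure D1:**
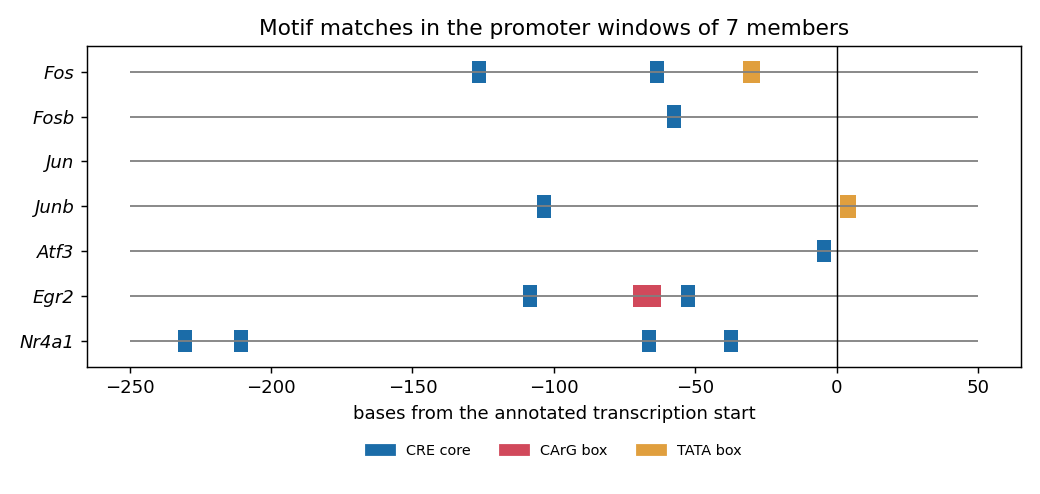
Positions of motif matches in the RefSeq promoter windows of 7 genes. The x axis gives bases from the annotated transcription start (line at 0), grey lines are the windows and coloured boxes are matches on either strand. The CRE core lies in every track but that of Jun, the CArG box in that of Egr2 and the TATA box in those of Fos and Junb.

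The core occurred once each in the windows of Fosb, Junb and Atf3, and in more than 1 copy in those of Fos, Egr2 and Nr4a1. The Fos window held it at -66 to -62 and at -129 to -125, and its TATA box at -33 to -28. The Nr4a1 window held 4 copies, at -40 to -36, -69 to -65, -213 to -209 and -233 to -229. The CArG box, the serum response factor site, was matched in 1 of 7 genes, Egr2, at -72 to -63, against 1.63% of all windows. TATAAA was matched in Fos and, just after the start, in Junb, against 13.6% of all windows. The full palindrome TGACGTCA was matched in 0 of 7 genes (1.79% of all windows), the AP-1 site TGANTCA in 0 (7.81%) and the EGR site GCGTGGGCG in 0 (0.612%). A match describes the letters of the window and was not tested for binding, and elements outside the window were not searched.

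Fos, which pairs with Jun proteins to form the AP-1 factor, had the widest range of the 10 genes. Its level was 0.74, 0.49 and -1.17 in wild-type 11, 12 and 13, and -1.95, -1.30 and -0.74 in knockout 1, 11 and 12. Wild-type 11 and 12 stood above the other 4 lungs, and wild-type 13 lay among the knockout lungs, so the groups overlapped. The lung with the highest level exceeded the lowest 6.42-fold. The array prints the Fos probe in 10 spots, whose coefficient of variation within an array was 3.59% to 5.28%.

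The Fos means of 0.02 ± 1.04 (wild type) and -1.33 ± 0.60 (knockout, SD, n = 3 each) were the farthest apart of the 10 genes. The difference of -1.35 (SE 0.58), a 2.54-fold higher mean in the wild type, did not pass the threshold (limma, unadjusted p = 0.057, adjusted p = 0.9998). With scan day as a block it was -0.90 (SE 0.30, limma, unadjusted p = 0.028, adjusted p = 0.9995), and the 2 days taken singly gave -0.45 (day 1) and -1.35 (day 2). Leaving out a lung moved it between -0.99 (without wild-type 11) and -1.94 (without wild-type 13). Scan day itself went with Fos: its level was 1.33 higher on day 2 with genotype in the model (SE 0.30, 2.52-fold, limma, adjusted p = 0.052), and the adjusted p lay between 0.032 and 0.046 in the 5 alternative fits. The Fos probe lies at chr12:83478431-83478490 on the mouse build mm7 of the array files, whose gene annotation was not used here. Other members' probes lie at chr7:16985502-16985561 for Fosb, chr4:94441779-94441838 for Jun, chr8:83563097-83563156 for Junb, chr1:190724174-190724233 for Atf3, chr10:67145376-67145435 for Egr2, chr14:64726656-64726715 for Egr3, chr15:101260484-101260543 for Nr4a1 and chr8:83243584-83243618 for Ier2 on that build.

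**Figure D2:**
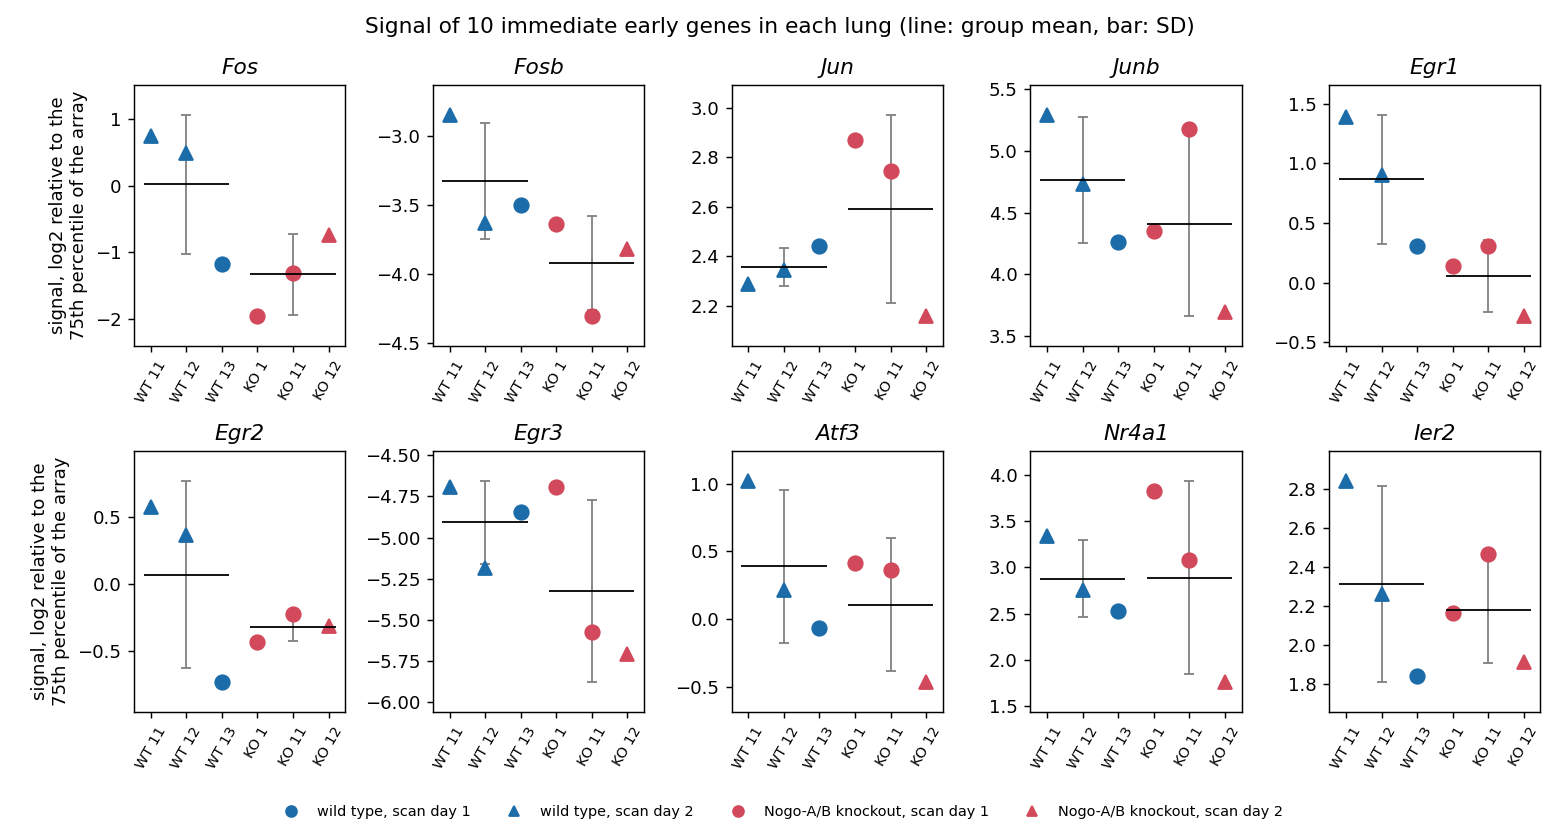
Signal of each of the 10 genes in each lung. The y axes give log2 signal relative to the 75th percentile of the array and differ between panels, points are single lungs, colours are genotypes, shapes are scan days, lines are group means and bars are SD (n = 3). Wild-type 11 is the highest point in 7 panels and knockout 12 the lowest in 6, and the groups overlap in all panels but those of Fosb and Egr1.

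Fosb, a close relative of Fos with the same partners, was dim but well above background on all 6 arrays. Its level was -2.85, -3.63 and -3.50 in wild-type 11, 12 and 13, and -3.64, -4.30 and -3.82 in knockout 1, 11 and 12. All 3 knockout lungs lay below all 3 wild-type lungs, though wild-type 12 and knockout 1 were nearly level. The means of -3.33 ± 0.42 and -3.92 ± 0.34 (SD, n = 3 each) differed by -0.59 (SE 0.29, limma, adjusted p = 0.9998). The Fosb difference kept its sign within day 1 (-0.47) and within day 2 (-0.58), and scan day moved its level by 0.21.

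Jun, the principal partner of Fos in AP-1, was the member with the narrowest spread within the wild type. Its level was 2.29, 2.34 and 2.44 in wild-type 11, 12 and 13, and 2.87, 2.75 and 2.16 in knockout 1, 11 and 12. Knockout 1 and 11 were the highest lungs and knockout 12 the lowest, so the wild-type lungs lay inside the range of the knockout. The means were 2.36 ± 0.08 and 2.59 ± 0.38 (SD, n = 3 each), a difference of 0.23 (SE 0.23, limma, adjusted p = 0.9998) that was 0.37 within day 1 and -0.16 within day 2. The order of the lungs for Jun was the reverse of that for Fos but for the place of knockout 12. Jun was the 1 member whose window held no CRE core, although its stretch is printed for comparison.

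Junb, an AP-1 subunit that also restrains Jun, was read by a bright probe that was not saturated on any array. Its level was 5.29, 4.74 and 4.27 in wild-type 11, 12 and 13, and 4.35, 5.18 and 3.70 in knockout 1, 11 and 12. Wild-type 11 and knockout 11, from different genotypes and different scan days, were the highest lungs, and knockout 12 was the lowest. The means of 4.76 ± 0.51 and 4.41 ± 0.74 (SD, n = 3 each) differed by -0.36 (SE 0.44, limma, adjusted p = 0.9998), by 0.50 within day 1 and by -1.32 within day 2. A second Junb probe, well above background on all arrays, followed the first with r = 0.999 over the 6 lungs and gave a difference of -0.29.

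Atf3, a stress-induced member of the ATF family that dimerises with Jun proteins, had a similar order. Its level was 1.02, 0.21 and -0.07 in wild-type 11, 12 and 13, and 0.41, 0.36 and -0.46 in knockout 1, 11 and 12. Wild-type 11 was highest and knockout 12 lowest, with the other 4 lungs of both genotypes mixed between them. The means of 0.39 ± 0.56 and 0.10 ± 0.49 (SD, n = 3 each) differed by -0.28 (SE 0.38, limma, adjusted p = 0.9998), by 0.45 within day 1 and by -1.08 within day 2.

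Egr1, a zinc finger factor induced through serum response factor, was 1 of the 2 members whose groups did not overlap. Its level was 1.39, 0.90 and 0.31 in wild-type 11, 12 and 13, and 0.14, 0.31 and -0.28 in knockout 1, 11 and 12. Wild-type 13 and knockout 11 had nearly the same level, so the groups were separated by the width of that pair. The means of 0.87 ± 0.54 and 0.05 ± 0.30 (SD, n = 3 each) differed by -0.81 (SE 0.32), a 1.76-fold higher mean in the wild type (limma, unadjusted p = 0.044, adjusted p = 0.9998). The difference was -0.76 (SE 0.35, unadjusted p = 0.079 by limma) in the model that held scan day. Day 1 alone gave -0.09 for Egr1 and day 2 alone -1.42. Without wild-type 11 it was -0.55 (unadjusted p = 0.13 by limma), and it passed an unadjusted p of 0.05 in 1 of the 6 fits that left out a lung, that without wild-type 13. After adjustment 0 of 20245 genes (0%) were called by genotype with limma, and 191 reached an unadjusted p under 0.05. Lower in the knockout at that looser level stood 1 of the 10 members, Egr1, and 0.652% of all genes. All 3 knockout lungs lay below all 3 wild-type lungs in 2 of 10 members, Fosb and Egr1, and in 1.6% of all genes. With scan day as a block the looser call in that direction took 1 member, Fos, and 1.31% of all genes. An exact permutation test of 3 against 3 lungs cannot give a two-sided p under 0.1.

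Egr2, a zinc finger factor of the same family, was printed in 10 spots per array, with a coefficient of variation of 3.33% to 4.28%. Its level was 0.57, 0.36 and -0.73 in wild-type 11, 12 and 13, and -0.43, -0.23 and -0.31 in knockout 1, 11 and 12. The 3 knockout lungs were close together and lay inside the range of the wild type, where 2 lungs of day 2 were high and the lung of day 1 was the lowest of all 6. The means of 0.07 ± 0.70 and -0.32 ± 0.10 (SD, n = 3 each) differed by -0.39 (SE 0.36, limma, adjusted p = 0.9998), by 0.40 within day 1 and by -0.78 within day 2.

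Egr3 was the dimmest member, and its better probe was designed to a cDNA clone, while the probe for the RefSeq transcript was well above background on 1 of 6 arrays. Its level was -4.69, -5.18 and -4.85 in wild-type 11, 12 and 13, and -4.69, -5.57 and -5.71 in knockout 1, 11 and 12. Knockout 1 and wild-type 11 shared the top level and knockout 12 was lowest. The means of -4.91 ± 0.25 and -5.32 ± 0.55 (SD, n = 3 each) differed by -0.42 (SE 0.32, limma, adjusted p = 0.9998), by -0.28 within day 1 and by -0.77 within day 2. Without knockout 1 the Egr3 difference was -0.73 (unadjusted p = 0.022 by limma).

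Nr4a1, an orphan nuclear receptor induced by calcium and antigen receptor signals, varied most within the knockout. Its level was 3.34, 2.76 and 2.53 in wild-type 11, 12 and 13, and 3.83, 3.08 and 1.76 in knockout 1, 11 and 12. The highest and the lowest lung were both knockout lungs, and the wild-type lungs lay between them. The means of 2.88 ± 0.42 and 2.89 ± 1.05 (SD, n = 3 each) differed by 0.01 (SE 0.54, limma, adjusted p = 0.9998), a sign that turned under each other scaling (-0.030 with median scaling). The difference was 0.92 within day 1 and -1.29 within day 2, and -0.46 without knockout 1.

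Ier2, a small early response protein that enters the nucleus, had the level 2.84, 2.26 and 1.84 in wild-type 11, 12 and 13, and 2.17, 2.47 and 1.92 in knockout 1, 11 and 12. Wild-type 11 and wild-type 13 were the ends of the range, and the knockout lungs lay between them. The means of 2.31 ± 0.50 and 2.18 ± 0.28 (SD, n = 3 each) differed by -0.13 (SE 0.30, limma, adjusted p = 0.9998), by 0.47 within day 1 and by -0.64 within day 2. A much dimmer second Ier2 probe gave a difference of -0.21 but did not follow the order of the first (r = 0.15 over the 6 lungs), so the Ier2 order rests on 1 probe.

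**Figure D3:**
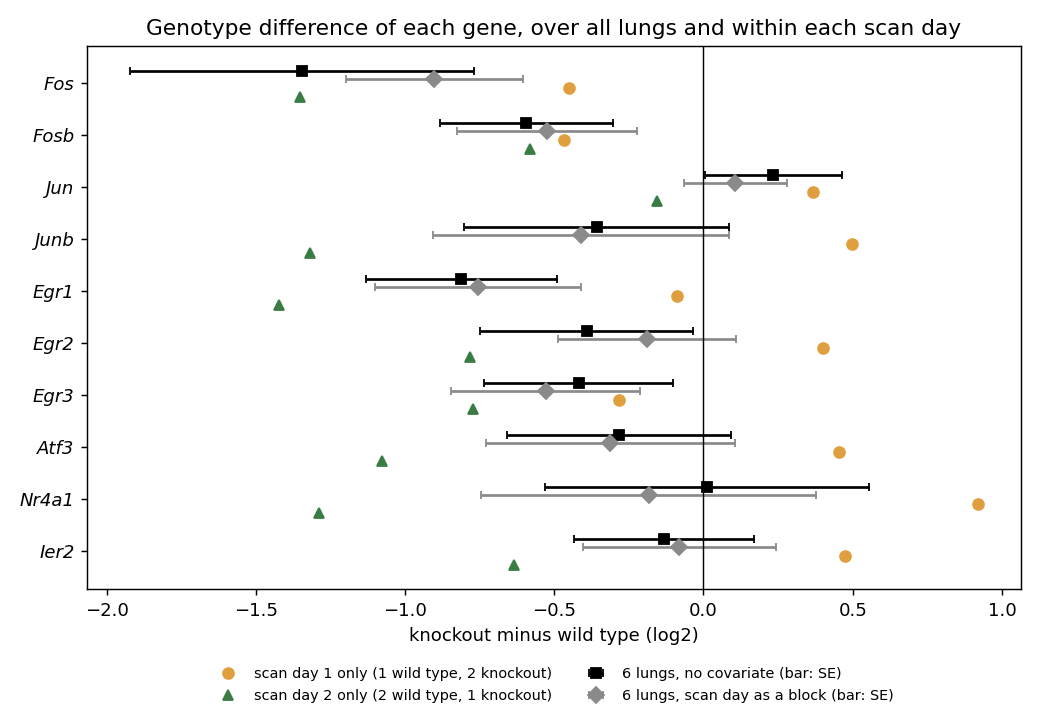
Knockout minus wild type (log2, x axis) for each of the 10 genes. Squares are the 6 lungs without a covariate and diamonds with scan day as a block, with SE, circles are day 1 alone (1 wild-type and 2 knockout lungs) and triangles day 2 alone (2 wild-type lungs and 1 knockout lung). All 10 triangles lie below 0, while 6 circles lie above it.

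Read by scan day, the genotype difference took different signs. Within day 2 it was below 0 for 10 of 10 members, with a median of -0.93 against 0.08 over all genes, of which 39.8% were lower. Within day 1 it was below 0 for 4 of 10 (Fos, Fosb, Egr1 and Egr3), with a median of 0.38 against -0.04 over all genes, of which 54.6% were lower. Day 2 holds knockout 12 as its only knockout lung and day 1 holds wild-type 13 as its only wild-type lung, so that within a day the genotype cannot be told apart from that lung. The test of the change between days was below 0 for 10 of 10 members and for 42.1% of genes. By limma 0 of 10 members and 0 of 20245 genes (0%) passed it after adjustment, with a smallest adjusted p of 0.383 among the members. At an unadjusted p under 0.05 it took 4 of 10 members, all with a lower knockout effect on day 2 (Egr1 at -1.34, Egr2 at -1.18, Atf3 at -1.53 and Nr4a1 at -2.21), against 4.03% of all genes in that direction and 2337 genes in both.

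Scan day alone separated many genes, with Fos nearest to the threshold among the members. With genotype in the model 2220 genes passed the adjusted threshold, 2.24% of all genes higher on day 2 and 8.73% lower. Of the 10 members 0 passed in either direction, and Fos had the smallest adjusted p (0.052 by limma). On day 2, 5 members were higher and 5 lower, while 54.2% of all genes were higher. The lower sign of Junb and Atf3 turned with median scaling, and that of Egr3 with quantile normalization, normexp correction and the authors' values. The members nearest to Fos in that difference were Egr2, higher on day 2 by 0.61 (adjusted p = 0.26 by limma), and, the other way, Nr4a1 at -0.59 and Jun at -0.39.

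Most pairs of members followed each other from lung to lung. Over the 45 pairs the median Pearson r across the 6 lungs was 0.53, from -0.72 for Fos and Jun to 0.91 for Atf3 and Ier2, and 40 pairs were above 0. An r above 0.8 was found in 8 of 45 pairs (17.8%) and in 7.28% of all pairs of the genes tested, whose median was 0.02. With the mean of each scan day subtracted the median was 0.65, 43 pairs were above 0 and 14 (31.1%) were above 0.8, against 7.89% of all pairs. The 6 lungs fall into 2 scan days, the points share their arrays, and these values are a description without a test.

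**Figure D4:**
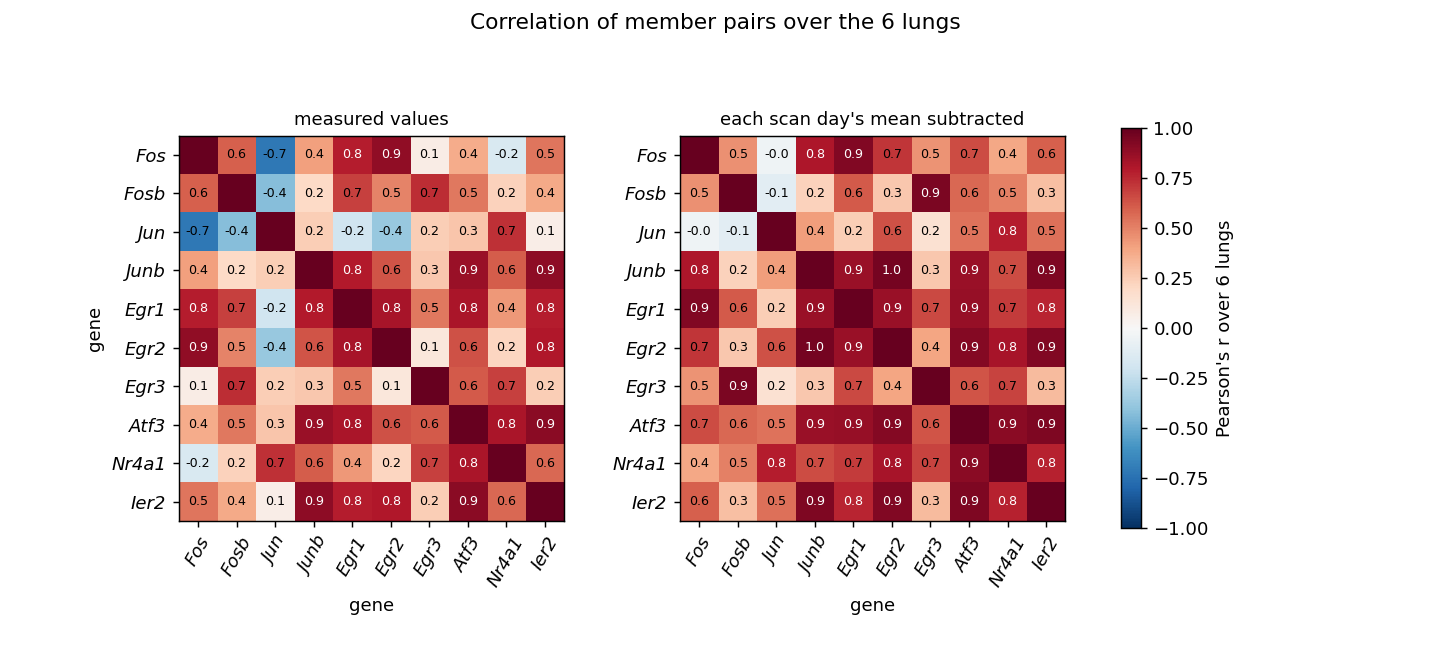
Pearson's r over the 6 lungs for each pair of the 10 genes (both axes are genes, colour and number give r), from the measured values on the left and with the mean of each scan day subtracted on the right. The block of Junb, Egr1, Egr2, Atf3, Nr4a1 and Ier2 is red on the right, and the blue cells of Jun on the left, down to -0.72 with Fos, give way there to values of -0.11 and above.

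The same few lungs stood at the ends for most members. Wild-type 11 was highest for Fos, Fosb, Junb, Egr1, Egr2, Atf3 and Ier2, a place it took in 13.2% of all genes, and it lay above the mean of its scan day for 10 of 10 members. Knockout 12 was lowest for Jun, Junb, Egr1, Egr3, Atf3 and Nr4a1, against 12.7% of all genes, and lay below the mean of its day for 10 of 10. Knockout 1 was highest for the other 3 members, Jun, Egr3 and Nr4a1, against 18.9% of all genes. The median deviation of the members from their own mean was 0.70 in wild-type 11, 0.00 in wild-type 12, -0.32 in wild-type 13, -0.05 in knockout 1, 0.01 in knockout 11 and -0.46 in knockout 12. Wild-type 11 and knockout 12, at the ends, were scanned on the same day and the same slide.

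The spread between lungs of the same genotype was wider than for the median gene in 9 of 10 members, all but Jun. Its median over the members was 0.47 (SD, log2) against 0.32 over all genes, and 0 of 10 members lay in the top 10% of genes. Within genotype and scan day it was 0.45 against 0.23, and 2 members, Junb and Nr4a1, lay in the top 10%. The values of Fos came down most, from an SD of 0.85 within genotype to 0.41 within genotype and day.

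The 5 genes most like Fos over the lungs were named by their correlation alone. Among 3354 genes that were well above background on all arrays and had an SD of at least 0.5, the highest r with Fos over the 6 lungs was that of Cd84, a leukocyte adhesion receptor (0.98), followed by Plek, the pleckstrin of platelets and leukocytes (0.98), Apbb1ip, an integrin regulator of blood cells (0.98), the unnamed transcript ENSMUST00000036329 (0.98) and Evi2a (0.97). An r above 0.9 was found in 98 of these genes (2.92%). Of the members, Egr2 (0.88) and Egr1 (0.78) were nearest to Fos and Jun (-0.72) farthest. Cd84 had the level 0.62, 0.30 and -0.60 in the wild-type lungs 11, 12 and 13, and -0.82, -0.68 and -0.37 in knockout 1, 11 and 12, the same order as for Fos.

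Other genes of the early response were more often lower than higher in the knockout, while 47.8% of all genes were lower. By limma 0 of them passed the adjusted or the unadjusted threshold between the genotypes. Of 20 other early transcription factors 18 were measured, 11 lower and 7 higher in the knockout, with a median difference of -0.04. Among them Nfil3 had -0.63 (SE 0.52), Bhlhe40 -0.26 (SE 0.27) and Klf4 0.32 (SE 0.43). Of 22 feedback and RNA decay genes 21 were measured, 13 lower and 8 higher, with a median of -0.11. The MAP kinase phosphatase Dusp1 had -0.43 (SE 0.20) and lower values in all 3 knockout lungs, while the growth arrest genes Gadd45g, at 0.39 (SE 0.19), and Gadd45b, at 0.22 (SE 0.15), had higher values in all 3. The median difference of both lists was above 0 within day 1 (0.30 and 0.32) and below 0 within day 2 (-0.33 and -0.40), as for the members. The median level of the feedback list was highest in knockout 1 (2.97) and lowest in wild-type 11 (2.69). This median is the level of the middle gene on each array. That gene was Gadd45b in the wild-type lungs, Dusp1 in knockout 11 and 12 and another gene in knockout 1. The median therefore does not give the order of the lungs for the single genes of the list. Its r with the members ran from -0.92 for Fos to 0.87 for Jun and was below 0 for all but Jun and Nr4a1. By the log2 of the summed level of that list, wild-type 11 was highest (8.04) and wild-type 13 lowest (7.32). The order of the lungs thus depended on the summary used.

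The secreted and enzyme genes of the early response were lower in the knockout in 12 of 12 (47.8% of all genes). Their median was -0.40, with 0.00 within day 1 and -0.72 within day 2. The cytokine gene Il1b had the largest difference of those named, -2.03 (SE 0.93). The matricellular gene Ccn1 had -0.33 (SE 0.16) and the prostaglandin synthase gene Ptgs2 had -0.47 (SE 0.23). The median level of this list took the lungs in the order wild-type 11, knockout 11, wild-type 12, knockout 1, wild-type 13 and knockout 12, which is the order for Junb. By the log2 of the summed level wild-type 12 (5.70) stood above knockout 11 (5.63). Upstream of the members, of 17 genes for serum response factor, its partners, CREB and the kinases 16 were measured, with 8 lower, 8 higher and a median of 0.01. Elk4, a serum response factor partner, had 0.92 (SE 0.64), the kinase gene Rps6ka1 0.24 (SE 0.19) and Mef2c 0.87 (SE 0.77).

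Lists for stress and handling were set beside the members. Of 12 heat shock genes 11 were measured, 9 lower and 2 higher in the knockout, with a median of -0.17, of 0.31 within day 1 and of -0.59 within day 2. Hspa1a had -0.94 (SE 0.79), Hspb1 -0.50 (SE 0.52) and Bag3 -0.27 (SE 0.29). The median heat shock level was 5.45 in wild-type 11 and 5.29 in knockout 11, against 4.17 to 4.63 in the other 4 lungs. The middle gene was Hspa1a in knockout 11 and another gene in wild-type 11. By the log2 of the summed level wild-type 11 stood at 8.79 and knockout 11 at 8.83, against 7.93 to 8.37 in the other 4 lungs. Over the 6 lungs the r of the median with the members ran from -0.01 for Jun, 0.03 for Egr3, 0.18 for Fosb and 0.33 for Nr4a1 up to 0.89 for Ier2 and 0.92 for Junb. The 12 hypoxia genes were lower in 8 and higher in 4, with a median of -0.02, and Ddit4 had 0.57 (SE 0.29), Pdk1 0.30 (SE 0.17) and Adm 0.27 (SE 0.22). Of 9 glucocorticoid targets 8 were measured, 2 lower and 6 higher, with a median of 0.11, and Pdk4 had 0.38 (SE 0.16), Mt2 0.22 (SE 0.35) and Mt1 0.14 (SE 0.24). None of these lists held a gene past the unadjusted or adjusted threshold by limma. The labels give no time from death to freezing and no order of dissection, and the part of handling in the members' levels was not tested.

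**Figure D5:**
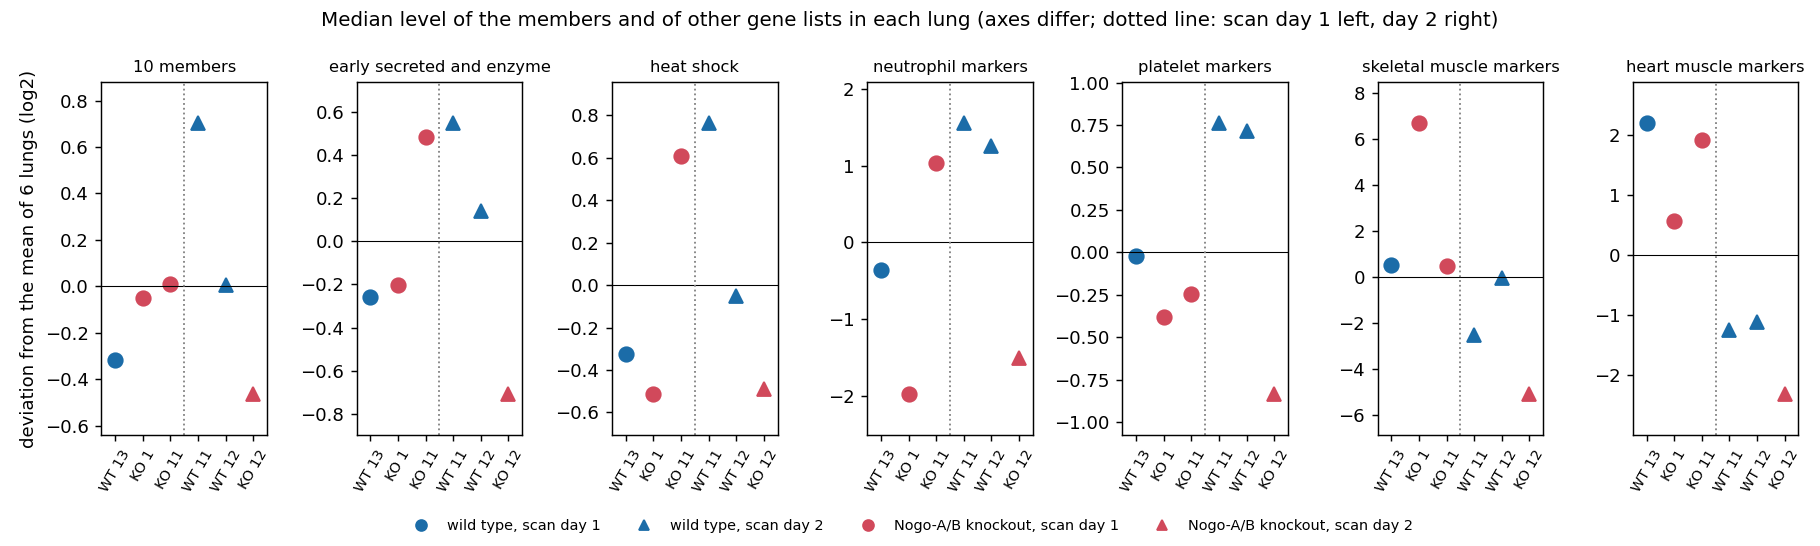
Summary of the 10 members and of 6 gene lists in each lung (log2, y axes differ). For the members it is the median of their deviations from their own means over the 6 lungs. For a list it is the median level of its genes, as the deviation from the mean of that median over the 6 lungs. The member panel and the list panels therefore show different statistics. Lungs of scan day 1 stand left of the dotted line and those of day 2 right of it, colours are genotypes. Wild-type 11 is the highest lung for the members and for the heat shock, secreted, neutrophil and platelet lists, and knockout 12 lies below 0 in all 7 panels. By the log2 of the summed level knockout 11 (8.83) stood above wild-type 11 (8.79) for the heat shock list. The 6 lists were picked from those in the text. Among the lists not drawn, knockout 12 had the highest median for the upstream genes (1.35, wild-type 11 at 1.33) and for the mast cell markers. By the log2 of the summed level wild-type 11 was highest for both (6.04 and -2.15), with knockout 12 at 5.89 and -2.47.

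Markers of other cell types were set beside the members. Of 8 neutrophil markers 7 were measured and 7 were lower in the knockout (47.8% of all genes). Their median was -1.57, with 0.28 within day 1 and -2.85 within day 2. By limma 2 of 7 were lower at an unadjusted p under 0.05 (0.652% of all genes), and 0 reached the adjusted threshold. The 2 were the protease gene Mmp9 at -1.77 (SE 0.69) and Cd177 at -1.13 (SE 0.44). The third named, Retnlg, had -1.97 (SE 1.06). The log2 of the summed level of the 7 markers was 6.38 to 8.26 in the wild type and 5.42 to 7.60 in the knockout, with wild-type 11 highest and knockout 12 lowest. By the median of the list wild-type 11 was again highest, and knockout 1 (-1.25) lay below knockout 12 (-0.78). Over the 6 lungs that median had an r between -0.23 (Jun) and 0.84 (Junb) with the members. Their part in the levels of the members was not tested.

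All 5 platelet markers were lower in the knockout (47.8% of all genes), with a median of -0.83 that was -0.55 within day 1 and -1.17 within day 2. By limma 4 of 5 were lower at an unadjusted p under 0.05 (0.652% of all genes), and 0 reached the adjusted threshold. Ppbp had -0.83 (SE 0.20), Pf4 -0.86 (SE 0.22) and Itga2b -0.72 (SE 0.20), the 3 with the smallest p. Their summed level was 5.30 to 5.72 in the wild type and 4.34 to 4.77 in the knockout, without overlap. Over the 6 lungs the platelet median had an r with the members from -0.22 for Jun to 0.97 for Egr1, with 0.62 for Fosb and 0.35 for Nr4a1. The part of platelet RNA in the members' levels was not tested.

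Skeletal muscle markers stood out in knockout 1, where their summed level was 6.92 against -2.78 to 0.63 in the other 5 lungs, and Acta1 reached 6.26. The 3 markers Myh2, Acta1 and Ckm were higher in the knockout mean by 2.90 (SE 2.83), 1.98 (SE 2.34) and 1.65 (SE 2.91). Knockout 1 was also the highest lung for Jun, Egr3 and Nr4a1. Their differences without it were 0.10, -0.73 and -0.46, against 0.23, -0.42 and 0.01 with it. The sign of Nr4a1 also turned without wild-type 12 (-0.049), wild-type 13 (-0.16) or knockout 11 (-0.081). Heart muscle markers (Myh6, Tnnt2 and Actc1) had a summed level of 3.59 to 5.26 in the 3 lungs of day 1 and of 0.96 to 2.19 in the 3 lungs of day 2. All 3 markers were called lower on day 2 by limma (adjusted p = 0.034, 0.014 and 0.0033), against 8.73% of all genes. The heart muscle differences between genotypes were -0.18 (SE 1.35), -0.17 (SE 1.55) and 0.18 (SE 1.0), and the part of muscle in the levels of the members was not tested.

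The markers of other lung cells were read in the same way. Those of lung epithelium were lower in 1 and higher in 5 of 6, with a median of 0.24, and Sftpc had 0.43 (SE 0.21), Sftpa1 0.28 (SE 0.19) and Scgb1a1 0.29 (SE 0.23). Endothelial markers had a median of 0.13 over 5 genes, with Pecam1 at 0.13 (SE 0.17), Tie1 at 0.33 (SE 0.53) and Cdh5 at 0.09 (SE 0.17). Macrophage markers had a median of -0.01 over 5 measured of 6, with Chil3 at 0.22 (SE 0.32), Cd68 at 0.05 (SE 0.18) and Marco at -0.12 (SE 0.69). Smooth muscle markers had a median of 0.55 over 5 genes, with Des at 0.93 (SE 0.85), Acta2 at 0.55 (SE 0.54) and Tagln at 0.31 (SE 0.49). With scan day as a block that median was -0.07. By limma 4 of 5 smooth muscle markers were called lower on day 2 (8.73% of all genes), with a median day difference of -1.28. Mast cell markers had a median of -0.09 over 3 genes, with Cpa3 at -0.64 (SE 0.36), Mcpt4 at 0.15 (SE 0.33) and Tpsb2 at -0.09 (SE 0.21). None of the genes in these 5 lists reached an unadjusted p under 0.05 between the genotypes by limma.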

How the data were processed

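Total RNA of 6 lungs was amplified, labelled with Cy3 and, per the labels' protocols, read in 1 colour on Agilent arrays. The deposited scanner files hold an intensity per spot, a processed signal that Feature Extraction 9.5.1.1 had background-subtracted and detrended, per the file headers, without scaling between arrays; the submitters' processing notes name version 9.1. The authors' deposited table holds log2 intensities with array medians of 8.09. Its log base was read from its values, and its making by the authors is not given in the sources.

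After removal of outlier spots (48 to 99 per array) each probe took the mean of its spots, for 41144 probes, 32688 of them named through the RefSeq table. Processed signals were divided by the array's 75th percentile and put on the log2 scale. That percentile was lowest in knockout 12 (1086) and lay between 1629 (wild-type 11) and 2343 (wild-type 13) in the other arrays. A gene was its brightest probe among those well above background on at least 3 of 6 arrays. All 10 members passed that filter.

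The genotype comparison used limma 3.58.1 under R 4.3.3 (two-sided, Benjamini-Hochberg over 20245 genes, called at an adjusted p under 0.05), also with scan day as a block, within each day and with the interaction of genotype and day. Within a day 1 group has a single lung, whose spread is taken from the other group. The test was checked on simulated data. The text names all members, Rtn4, up to 3 genes per list with the smallest unadjusted p, and the 5 genes most like Fos. The members, lists and tests were chosen with earlier results of these data known. Alternatives covered scaling, background correction, the authors' values, the filter, probe choice, scan day, slide, replicate number and single lungs. Promoter windows are from RefSeq (GRCm38.p6). Figures were drawn with matplotlib 3.10.9.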

Additional observations from a re-analysis of the deposited data

How the results depend on the processing

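Of the 10 members, 8 were lower in the knockout, and 8 to 10 under every alternative but 2 kinds: 4 within day 1, and 6 to 9 without a lung. The median r between members lay between 0.53 and 0.65, and 0 genes or members passed the interaction in its 3 alternatives. Members at an unadjusted p under 0.05, 1 in the fit reported, were 0 with median scaling and within day 1, 2 with probes well above background on all 6 arrays and with slide as a random block, 5 within day 2, 3 with the replicate block and 0 to 3 without a lung. The share of all genes at that level is not given for these alternatives, so their member counts cannot be read as an excess over other genes. The 0.652% of all genes lower in the knockout at that level belongs to the fit reported. Within day 2 the knockout is a single lung, so that count cannot separate genotype from that lung. Genes past the adjusted threshold between genotypes, 0 in the fit reported, were 2 with median scaling and with slide as a random block, 1 with normexp correction and with the authors' values, and 0 to 1 without a lung (1 without knockout 1). By scan day, 3648 of 20245 genes passed with median scaling and 3364 without the genotype term, against 2220. Fos was then the 1 of 10 members called. The same held with quantile normalization (2842 genes), normexp correction (2973) and the authors' values (3026). Median scaling moved the median scan day difference of all genes from 0.04 to 0.32.

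The replicate block takes the numbers 11 and 12, which both groups carry. The deviations of same-numbered lungs correlated at -0.25 and 0.42, which cannot decide whether the animals were paired. The labels do not state a pairing. These differences changed sign. Nr4a1 was -0.030 with median scaling, -0.0090 with quantile normalization, -0.026 with normexp correction, -0.015 with the authors' values, -0.18 with scan day as a block, -0.13 with slide as a random block, -1.29 within day 2, -0.63 with the replicate block, and -0.46 to 0.57 without a lung. Within day 1 Junb was 0.50, Egr2 0.40, Atf3 0.45 and Ier2 0.47, and within day 2 Jun was -0.16. Without a lung Atf3 ran from -0.51 to 0.031 and Ier2 from -0.37 to 0.13, both positive without wild-type 11, and Ier2 was 0.0016 without knockout 12. The day difference of Junb was 0.14 and of Atf3 0.22 with median scaling, that of Atf3 0.021 without the genotype term, and that of Egr3 0.11 with quantile normalization, 0.039 with normexp correction and 0.073 with the authors' values. The cause of these changes was not tested. All shown probes were well above background on all 6 arrays, and the number of arrays limits every value.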
